A study of Mus musculus with 12 samples.

Results

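C-type lectin receptors were examined as 10 of the 56735 gene names in the count table, taken by name: Clec4n, Clec4b1, Clec4d, Clec4e, Clec4a1, Clec4a2, Clec4a3, Clec12a, Clec7a and Clec10a. All 10 had counts and all 10 passed the filter on low counts. RNA-seq was carried out on CD206+ macrophages sorted from mouse brain after removal of the choroid plexuses, the population that the study calls sdCAMs and that covers leptomeningeal and perivascular macrophages. All mice had the genotype Mrc1CreERT2/CreERT2:R26tdT/tdT and received tamoxifen, followed 4 weeks later by 7 days of gavage with vehicle or with BLZ945, an inhibitor of the CSF-1 receptor, at 200 mg per kg, and cells were sorted 8 weeks after the last dose. The groups were vehicle tdT+, BLZ945 tdT+ and BLZ945 tdT- cells, with 4 libraries each, named by the mouse labels F1, F2, M1 and M2. The tdT+ and tdT- libraries of BLZ945 mice that share a label were taken, by that label, to come from the same mouse. The vehicle mice were other animals. The Cre is expressed from the Mrc1 locus, so tdT marks cells that expressed CD206 at tamoxifen and their descendants, and the same protein, CD206, served as the sorting gate for both fractions.

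C-type lectin receptors are membrane proteins of myeloid cells that bind carbohydrate and lipid structures of microbes and of damaged host cells. Some of them signal for activation, through the adaptor FcRγ (gene Fcer1g) or through a tyrosine motif of their own, and then use the kinase Syk and the scaffold Card9. Others carry an inhibitory motif that recruits phosphatases such as SHP-1 (gene Ptpn6), and a further set mainly takes up glycoproteins by endocytosis. Macrophages at the borders of the brain are known for high expression of several lectins, among them CD206 itself.

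Libraries held between 19969308 and 23395058 counts in 14230 to 15866 detected genes, and a floor of 3 counts corresponded to 2.6 to 3.16 normalised counts. Of the 8 sdCAM markers, none was at 0 in any group. The tdTomato entry had 0 counts in all 12 libraries, so the reporter could not be checked. The tdT- library F2 stood apart, with 450203 summed normalised counts over 10 neutrophil markers against 11.5 to 93.9 in the other tdT- libraries, and results that rest on it are also given without it. The tdT- fraction differed from BLZ945 tdT+ cells in other marker lists too. All 8 sdCAM markers were lower (summed normalised counts 629562 to 846039 against 1044606 to 1202630), and 7 of 8 microglia markers were higher (287383 to 572352 against 168787 to 198540). The remaining microglia marker, Fcrls, had 46213 to 68332 normalised counts against 69972 to 74017. It did not pass (log2 fold change -0.23, SE 0.12, adjusted p = 0.23). Most of the sdCAM sum was Apoe (mean 676333 against 924198 normalised counts, log2 fold change -0.43, SE 0.10), which did not pass against vehicle (adjusted p = 0.327). The study used bulk RNA-seq to define Lyve1, Cd163 and Folr2 as a signature of labelled cells, so their fall is not independent of that choice. The sum of 8 monocyte markers was 3078 to 6817 without F2 and 51872 in F2, against 931 to 2111, and 2 of 5 tested, Ccr2 and Ly6c2, passed as higher. Ccr2 had 3076 to 12013 normalised counts against 847 to 1981 (log2 fold change 2.32, SE 0.40, adjusted p = 2.19e-08), while Vcan was at 0 in all libraries. Ly6c2 had 0 to 3420 normalised counts, the highest in F2, against 0 in BLZ945 tdT+, and the groups overlapped. Its shrunken log2 fold change was 0.02 (SE 0.29, adjusted p = 2.28e-10), and it did not pass against vehicle (adjusted p = 0.447). The sum of the 10 dendritic cell markers was 14323 to 22548 against 7095 to 8307, with 2 of 8 tested higher and 1, Zbtb46, lower. Most of that sum was Siglech, which is also among the 8 microglia markers (mean 14938 against 5351 normalised counts). In bulk samples, fewer cells of a type and less RNA per cell cannot be told apart, and the part of these marker differences in the results on lectin receptors was not tested.

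Levels were compared between genes only per exon length, as TPM, which is counts per exon length scaled to the same sum in every library. In vehicle tdT+ cells Clec4n had the highest mean level per length (953 ± 99.3 TPM, SD, n = 4), followed by Clec4a3 (796 ± 78.2), Clec10a (565 ± 92.1) and Clec4a1 (425 ± 51.3). Each of these overlapped in range with the next. Clec4a2 (272 ± 25.4 TPM) and Clec7a (224 ± 29.1) overlapped with each other and lay below Clec4a1, Clec12a lay lower (147 ± 12.5), and Clec4b1 lower again (37.4 ± 10.4). Clec4d (5.17 ± 1.31 TPM) and Clec4e (1.76 ± 2.64) were the least abundant. In tdT- cells the order per length was Clec4a3 (610 ± 34.9 TPM), Clec4n (370 ± 114), Clec4a2 (232 ± 18.9), Clec4a1 (228 ± 27.8), Clec10a (177 ± 55.8), Clec7a (168 ± 68.0), Clec12a (151 ± 38.5) and Clec4b1 (115 ± 35.8). From Clec4n down to Clec4b1, each neighbour in that order overlapped with the next, so the 7 genes formed a continuous range, while Clec4a3 lay above them in every library.

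**Figure D1:**
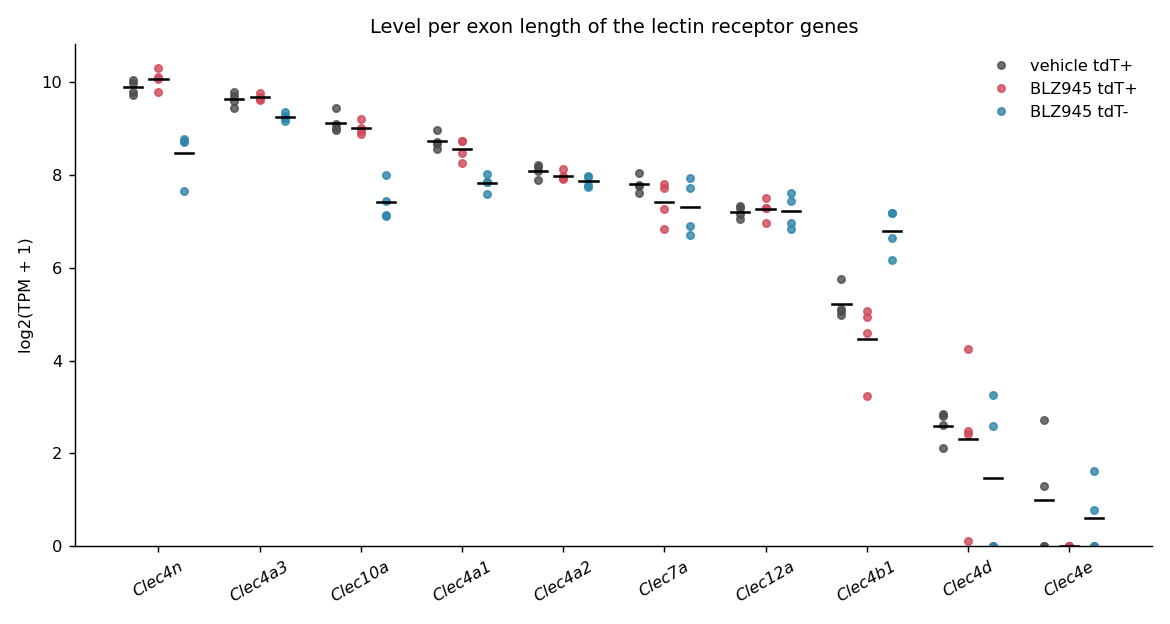
Level per exon length of each receptor gene, as log2(TPM + 1), in the 12 libraries, with genes in the order of the vehicle group. Points are libraries and black lines are group means. Clec4n fell from first place in both tdT+ groups to second place in tdT- cells, and Clec4b1 lay closer to the other receptors in tdT- cells than in either tdT+ group.

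The summed level of the 10 genes was 3425 ± 124 TPM in vehicle tdT+, 3408 ± 150 TPM in BLZ945 tdT+ and 2054 ± 183 TPM in tdT- cells (SD, n = 4). The lowest tdT+ library held 3203 TPM and the highest tdT- library 2326 TPM, so the tdT- range lay below both others. The make-up of this sum also differed. Clec4n and Clec10a together made up 41.1% to 46.7% of it in vehicle tdT+, 43.6% to 50.5% in BLZ945 tdT+ and 17.6% to 30.3% in tdT- libraries. The lowest of these was F2, and without it the tdT- range was 28% to 30.3%. The share of Clec4b1 was 0.915% to 1.51%, 0.242% to 1.02% and 3.62% to 7.41% in the same order of groups. The inhibitory receptors Clec4a2 and Clec12a together made up 11.8% to 12.9%, 10.7% to 13.2% and 17.7% to 19.9%. Their own mean levels were 272, 253 and 232 TPM for Clec4a2 and 147, 154 and 151 TPM for Clec12a. The larger share in tdT- cells thus goes with the lower sum and not with a higher level of these genes.

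Setting tdT- against tdT+ cells within BLZ945-treated mice asked how cells that carried no label differed from labelled cells of the same mice. Of the 10 receptor genes, 5 passed an adjusted p of 0.05 in DESeq2 (1 higher, 4 lower), where 6.38% of all 13724 genes tested passed, 2.86% as higher and 3.51% as lower. The 3 genes Clec4n, Clec10a and Clec4b1 also reached the DEG threshold, which also asks for a shrunken log2 fold change whose size is 1 or more, as did 2.25% of all genes (1.19% as higher, 1.06% as lower). The same 5 genes were those whose groups did not overlap, a property of 9.35% of genes tested. The median log2 fold change of the 10 genes was -0.00815, against 0.00104 over all genes tested, and the other 5 genes lay between -0.03 and 0.08. Log2 fold changes are shrunken values unless stated otherwise, and shrinkage pulls uncertain changes towards 0. All adjusted p-values given with a log2 fold change are those of DESeq2 with Benjamini-Hochberg adjustment.

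Among the receptors that couple to FcRγ, Clec4n and Clec4b1 went in opposite directions. Clec4n encodes Dectin-2, which binds mannans of fungi and mycobacteria. It had 9499, 9308, 10897 and 11398 normalised counts in the vehicle tdT+ libraries F1, F2, M1 and M2, and 11379, 9673, 13075 and 12092 in BLZ945 tdT+. In tdT- libraries it had 5021, 2366, 5033 and 5040.2. Every tdT- library lay below every tdT+ library, and F2 was the lowest of them by a wide margin. The log2 fold change against BLZ945 tdT+ was -1.35 (SE 0.21, adjusted p = 6.48e-10), which is 2.55-fold lower, and it was -1.18 without the tdT- library F2 (adjusted p = 7.41e-21). Within mice, the log2 ratio of tdT- to tdT+ was -1.18 in F1, -2.03 in F2, -1.38 in M1 and -1.26 in M2.

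Clec4b1 encodes DCAR, an activating receptor that recognises mycobacterial glycolipids. It had 207, 306, 184 and 193 normalised counts in vehicle tdT+ libraries F1, F2, M1 and M2, 136, 198, 48.2 and 177 in BLZ945 tdT+, and 916, 934, 656 and 468 in tdT-. It was the only one of the 10 genes that rose, and the lowest tdT- library exceeded the highest tdT+ library of either group. The log2 fold change against BLZ945 tdT+ was 2.24 (SE 0.46, adjusted p = 4.61e-06), 4.72-fold higher. It was 2.04 (adjusted p = 0.000252) without the tdT- library F2. The ratio varied between mice, with log2 values of 2.75 in F1, 2.24 in F2, 3.77 in M1 and 1.4 in M2, and the M1 value goes with the lowest tdT+ count of the 4 mice.

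Clec4d (MCL) and Clec4e (Mincle) form a pair of FcRγ-coupled receptors for mycobacterial cord factor, and both are also known in neutrophils and monocytes. Clec4d had 75.2, 73.3, 40.7 and 62.2 normalised counts in vehicle tdT+ libraries F1, F2, M1 and M2, 218, 56.2, 50.2 and 1.05 in BLZ945 tdT+, and 0, 114, 68.6 and 0 in tdT-. Clec4e had 57.1, 204, 0 and 0 in vehicle tdT+, 0 in each BLZ945 tdT+ library, and 0, 29.2, 87.5 and 0 in tdT-. Clec4d counts varied widely within both BLZ945 groups, Clec4e counts came from 2 vehicle and 2 tdT- libraries, and a difference was not detectable at this depth (adjusted p = 0.92 and 0.147). Without the tdT- library F2, Clec4e passed (adjusted p = 5.23e-07) although only the library M1 then held counts of it, so this call rests on a single library. The library with the neutrophil genes held the highest Clec4d count of the tdT- group, and the part of those genes in it was not tested.

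Of the DCIR family, Clec4a1 and Clec4a3 were lower in tdT- cells and Clec4a2 was not called. Clec4a1 (DCIR4) had 4639.7, 5714, 4812 and 4932 normalised counts in vehicle tdT+ libraries F1, F2, M1 and M2, 4962, 3675, 4810.3 and 4235 in BLZ945 tdT+, and 3279.6, 2970.4, 2546 and 2970 in tdT-. All 4 tdT- libraries lay below all 8 tdT+ libraries. The log2 fold change against BLZ945 tdT+ was -0.55 (SE 0.14, adjusted p = 0.000494), and the gene passed in all 16 alternative settings (adjusted p = 3.66e-05 to 0.0401). Clec4a3 (DCIR3) had 7283, 8574, 7821 and 8378 normalised counts in vehicle tdT+, 7835, 8403, 7732 and 8888 in BLZ945 tdT+, and 6121, 6819, 7349 and 6601 in tdT-. The tdT- libraries lay below those of BLZ945 tdT+ but overlapped with vehicle tdT+. Its log2 fold change of -0.27 (SE 0.09, adjusted p = 0.0328) passed in 6 of 16 alternatives only, and not when libraries were blocked by mouse (adjusted p = 0.108) or with edgeR (adjusted p = 0.124). Clec4a2 (DCIR1), which carries an inhibitory motif, had 5299.8 to 6524 normalised counts in vehicle tdT+, 5309.7 to 6141 in BLZ945 tdT+ and 5153 to 6116 in tdT- libraries. These ranges overlapped, with a log2 change of 0.01 (SE 0.10, adjusted p = 0.991).

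Clec12a, an inhibitory receptor for uric acid crystals released by dying cells, had 4999 to 7660 normalised counts in BLZ945 tdT+ and 5301 to 8689 in tdT- libraries, with a log2 change of 0.08 (SE 0.15, adjusted p = 0.904). Clec7a encodes Dectin-1, the receptor for β-glucans of fungal walls, which signals to Syk through a motif in its own tail. It had 4176, 4548, 2182 and 3096 normalised counts in BLZ945 tdT+ libraries F1, F2, M1 and M2, and 5156, 4591, 2642 and 2274 in tdT-. The log2 fold change was 0.04 (SE 0.20, adjusted p = 0.976). In both fractions the mice labelled F had more Clec7a counts than the mice labelled M, whereas in vehicle tdT+ libraries the values were 4587 and 3768 for F and 4338 and 5248 for M. A comparison of 2 mice against 2 cannot pass a permutation test, and none was made.

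Clec10a encodes MGL1 (CD301a), an endocytic receptor for galactose and N-acetylgalactosamine. It had 15937, 11733, 10979.6 and 11239 normalised counts in vehicle tdT+ libraries F1, F2, M1 and M2, 12819, 11544, 10420.5 and 10406 in BLZ945 tdT+, and 6011, 3354, 3389 and 4196 in tdT-. The tdT- libraries lay far below the others. The log2 fold change against BLZ945 tdT+ was -1.37 (SE 0.19, adjusted p = 5.67e-12), 2.58-fold lower, and -1.27 without the tdT- library F2 (adjusted p = 4.25e-10). All 4 mice showed the direction, with log2 ratios from -1.78 to -1.09.

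**Figure D2:**
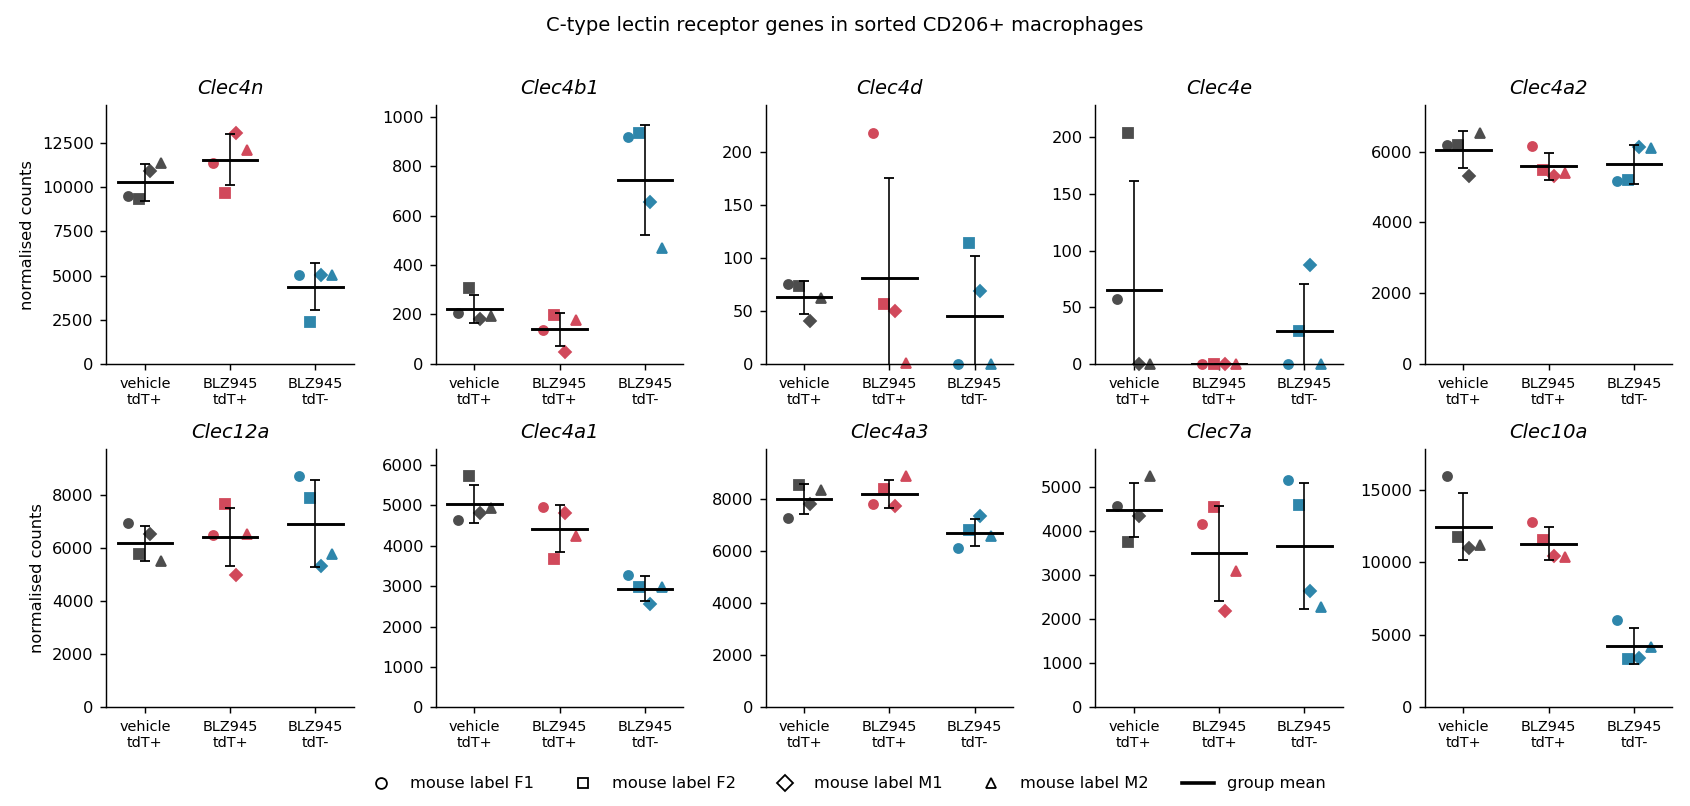
Normalised counts of the 10 receptor genes in vehicle tdT+, BLZ945 tdT+ and BLZ945 tdT- libraries, on linear axes that start at 0. Symbols are mouse labels, thick lines group means and bars the SD over 4 libraries, cut at 0 for Clec4d and Clec4e. Clec4n, Clec10a and Clec4a1 lie lower and Clec4b1 lies higher in the 4 tdT- libraries than in each of the tdT+ libraries.

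**Figure D3:**
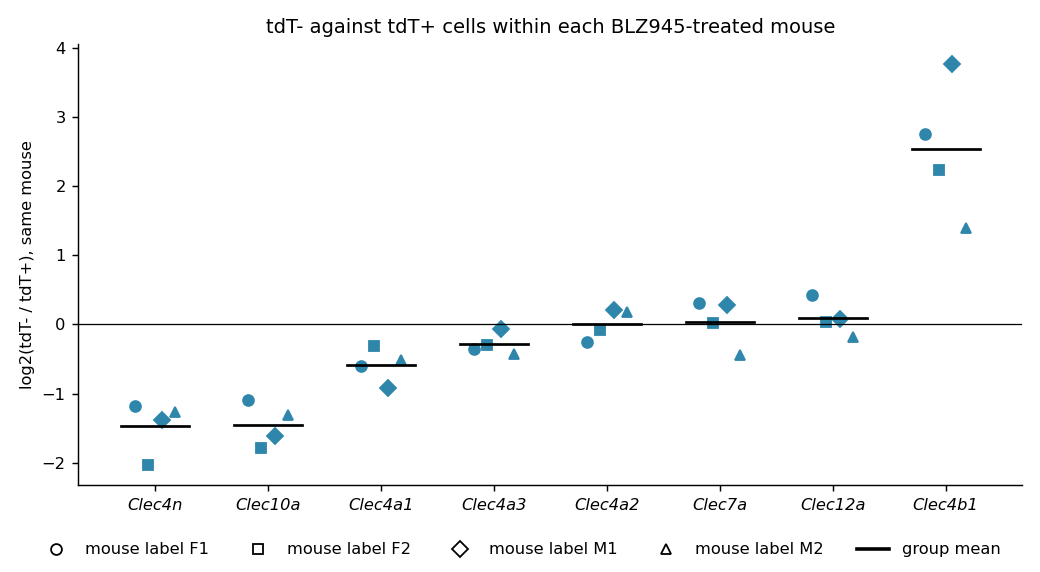
Log2 ratio of normalised counts in tdT- to tdT+ cells of the same BLZ945-treated mouse for the 8 genes with more than 3 counts in each of these libraries. Symbols are mice and lines are means over 4 mice. Clec4n, Clec10a, Clec4a1 and Clec4a3 lie below 0 and Clec4b1 lies above 0 in all 4 mice.

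The comparison of tdT- with vehicle tdT+ cells set the same fraction against labelled cells of mice that had no inhibitor. There was no vehicle tdT- group, so label and treatment differed together here and cannot be told apart. It uses the same tdT- libraries, so its values are not independent of those above. Of the 10 genes, 4 passed (1 higher, 3 lower), where 6.76% of all genes passed, 3.27% as higher and 3.49% as lower, and 3 were DEGs, as were 2.55% of genes (1.48% as higher, 1.07% as lower). For Clec10a the log2 fold change was -1.52 (SE 0.19, adjusted p = 1.03e-14), for Clec4n -1.18 (SE 0.21, adjusted p = 9.93e-08) and for Clec4a1 -0.75 (SE 0.14, adjusted p = 7.1e-07). Clec4b1 was 2.83-fold higher (log2 fold change 1.5, SE 0.48, adjusted p = 0.00275) and passed in 14 of 16 alternatives. It did not pass with edgeR (adjusted p = 0.0521), nor with edgeR without the tdT- library F2 (adjusted p = 0.114). Clec4a3, at -0.24 on the log2 scale (SE 0.09, adjusted p = 0.0813), passed in 4 of 16 alternatives. The 4 genes that passed were those whose groups did not overlap, as for 9.7% of all genes tested.

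A further contrast, BLZ945 tdT+ against vehicle tdT+ cells, addressed whether labelled cells that outlasted the inhibitor had changed. None of the 10 receptor genes passed in DESeq2, where 0.955% of all genes did (0.474% as lower), none was a DEG (0.168% of all genes, 0.0146% as lower), and 1 of them, Clec4e, had an unadjusted p under 0.05. With edgeR 0 passed and again 1 had an unadjusted p under 0.05. The shrunken log2 fold changes lay between -0.10 for Clec4a1 (SE 0.11) and 0.05 for Clec4n (SE 0.12). Without shrinkage they were wider and uncertain, at -0.67 for Clec4b1 (SE 0.45), -0.36 for Clec7a (SE 0.28), 0.37 for Clec4d (SE 1.54) and 0.17 for Clec4n (SE 0.20), and Clec4e has no finite fold because BLZ945 tdT+ libraries were at 0. For all 10 genes the groups overlapped, while they were separate for 6.72% of the genes tested. The mean of Clec4b1 was 140 ± 66.4 normalised counts in BLZ945 tdT+ and 222 ± 56.6 in vehicle tdT+ (SD, n = 4), with overlapping ranges (adjusted p = 0.874). Clec4e was called lower when the vehicle library F1 was left out (adjusted p = 2.65e-07), where a single vehicle library with counts stood against libraries at 0.

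**Figure D4:**
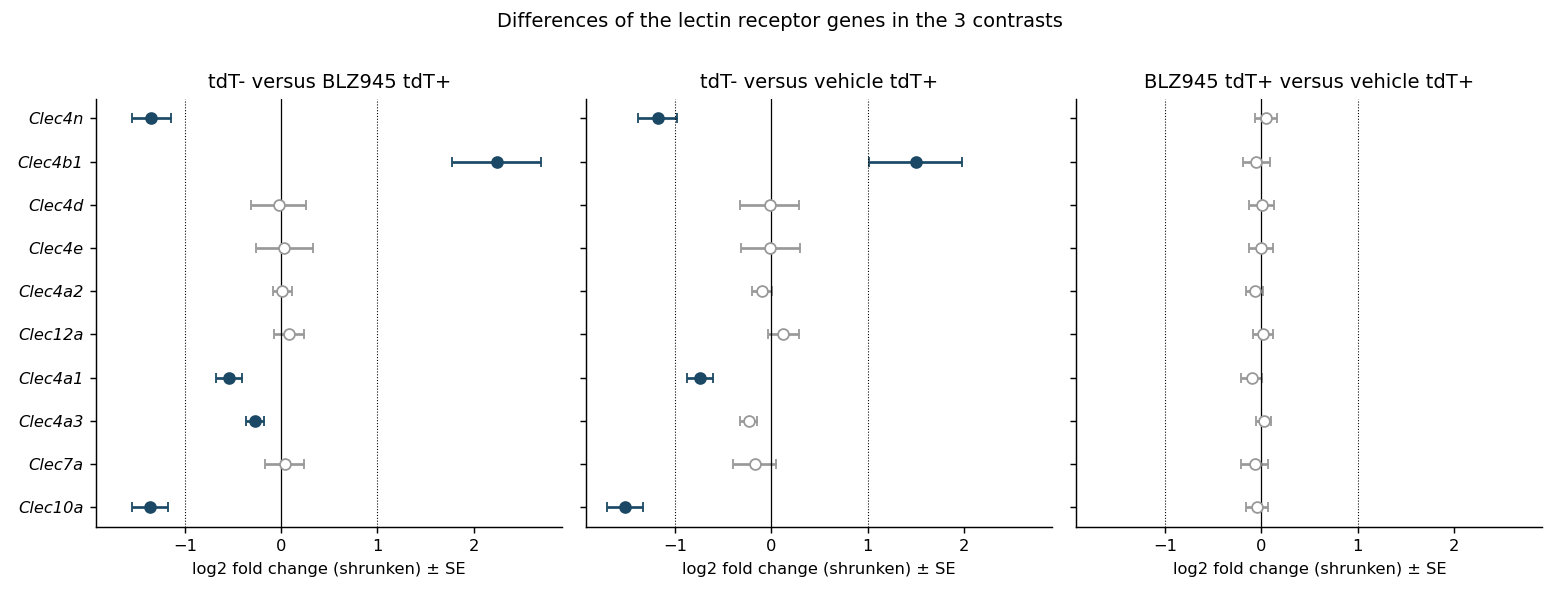
Shrunken log2 fold change with SE of each receptor gene in the 3 contrasts. Filled points passed an adjusted p of 0.05, open points did not, and dotted lines mark the DEG threshold of 1. In the contrast of BLZ945 tdT+ with vehicle tdT+ all points are open and lie, after shrinkage, between -0.10 and 0.05.

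Of the 10 genes, 9 lie on chromosome 6 and Clec10a on chromosome 11 (11:70047023-70061660, GRCm39, as in the count table). The 7 Clec4 genes span 368 kb (6:122898807-123266829) in the order Clec4a1, Clec4a3, Clec4b1, Clec4a2, Clec4n, Clec4d and Clec4e. Clec12a and Clec7a lie 6.05 Mb further on (6:129319654-129449742). Neighbouring genes therefore differed in direction. Clec4b1, which rose, lies 34.9 kb before Clec4a2, which had overlapping groups, and 85.8 kb separate Clec4a2 from Clec4n, which fell. The other annotated genes between the Clec4 genes were sparse. Clec4a4 had group means of 31.6, 14 and 13.5 normalised counts in vehicle tdT+, BLZ945 tdT+ and tdT- cells (adjusted p = 0.998 for tdT- against BLZ945 tdT+). Clec4b2, the closest relative of Clec4b1 by name, had counts in 1 tdT- library only (42.4 normalised counts). Gm44132 and Gm5883 had 54 and 50 counts over the 12 libraries, and Gm44147 and Gm22946 had 0. Between Clec12a and Clec7a, Clec1a, Clec1b and Clec9a had 500, 280 and 115 counts over all libraries, and Clec12b and Gm43914 had 0. No receptor gene shared exon bases with another gene. The Clec4a genes, and likewise Clec4b1 and Clec4b2, are close relatives, and reads that fit more than 1 of them were not counted, so their levels carry this uncertainty.

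Promoter sequences were taken from RefSeq (GRCm38.p6, a build other than that of the counts) for 8 of the 10 genes, in 10 windows. The promoter set used held no entry for Clec4n or Clec10a. The 250 bases before the start are shown for Clec4b1 (chr6:123049712-123049961), Clec4a1 (chr6:122921598-122921847) and Clec4a2 (chr6:123122440-123122689), all on the plus strand, because these genes of 1 cluster rose, fell and had overlapping groups. After the shift between builds, the windows of Clec4b1 and Clec4a1 end at the start of the gene as counted. That of Clec4a2 lies inside the gene as counted, so it belongs to another start site. Capitals mark matches on either strand to PU.1 (AGGAAG), C/EBP (TTGCNNAA), AP-1 (TGANTCA), IRF (GAAA, any 2 bases, then GAAA) or NF-kB (GGGA, any 2 bases, then TTCC), searched as letters only. Matches to different motifs may overlap.
Clec4b1: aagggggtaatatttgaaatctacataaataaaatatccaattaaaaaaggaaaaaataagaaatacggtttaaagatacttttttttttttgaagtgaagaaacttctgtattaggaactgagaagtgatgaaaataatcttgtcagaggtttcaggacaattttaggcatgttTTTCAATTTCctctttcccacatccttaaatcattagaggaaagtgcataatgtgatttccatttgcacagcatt
Clec4a1: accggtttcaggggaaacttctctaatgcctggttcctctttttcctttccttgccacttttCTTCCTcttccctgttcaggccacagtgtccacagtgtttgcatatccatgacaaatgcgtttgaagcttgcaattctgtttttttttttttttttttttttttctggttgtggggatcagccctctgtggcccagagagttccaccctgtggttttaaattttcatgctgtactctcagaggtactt
Clec4a2: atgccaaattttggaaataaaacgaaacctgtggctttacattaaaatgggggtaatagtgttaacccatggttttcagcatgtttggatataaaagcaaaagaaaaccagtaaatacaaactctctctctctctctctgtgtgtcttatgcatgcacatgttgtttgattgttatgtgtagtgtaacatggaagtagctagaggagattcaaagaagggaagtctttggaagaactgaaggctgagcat
The Clec4b1 window held 1 IRF match 75 bases before the start and no other match, the Clec4a1 window held 1 PU.1 match 188 bases before the start, and the Clec4a2 window held none. Over all 32851 RefSeq windows of this length, 2.98% held the IRF letters, 29.5% the PU.1 letters, 9.56% the C/EBP, 6.75% the AP-1 and 1.21% the NF-kB letters. Of the other members, both Clec4a3 windows and those of Clec12a and Clec4d held PU.1 letters, those of Clec12a and Clec4e C/EBP letters, and that of Clec12a AP-1 letters, while the 2 windows of Clec7a held none. A match describes these letters and not a site in use.

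The lectin genes outside the 10 were followed in a list of 47, of which 29 were tested. Against BLZ945 tdT+ cells, 6 of 29 passed in tdT- cells, all lower, and against vehicle 5 passed as lower and 2 as higher. The median log2 fold change was 0.00351 against BLZ945 tdT+ and -0.00501 against vehicle. Mrc1, the gene of CD206, had 6012 to 8870 normalised counts in vehicle tdT+, 8003.5 to 12341 in BLZ945 tdT+ and 2232 to 3882 in tdT- libraries, and a log2 change of -1.5 (SE 0.20, adjusted p = 3.65e-13). The protein was part of the sorting gate. Cd209b, Cd209f and Cd209g, which belong to the SIGN-R lectins, were lower in tdT- cells as well. Cd209f fell from 11003 ± 2196 to 1369 ± 1007 normalised counts (SD, n = 4; log2 fold change -2.85, SE 0.48, adjusted p = 1.58e-08). Cd209b fell from 2509 ± 229 to 298 ± 185 normalised counts and Cd209g from 1521 ± 436 to 204 ± 112. Colec12, a scavenger receptor with a lectin domain, went from 8645 ± 1848 to 899.7 ± 158 normalised counts (log2 fold change -3.24, SE 0.17, adjusted p = 3.46e-75). Cd93, an endothelial and myeloid lectin-domain protein, was also lower (log2 fold change -0.81, SE 0.20, adjusted p = 0.000203). These 6 genes were the ones that passed.

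Mrc2, an endocytic collagen receptor, was at 0 in the vehicle group. In BLZ945 tdT+ libraries F1, F2, M1 and M2 it had 72.7, 128, 155 and 1.05 normalised counts, and in tdT- libraries 245, 171, 412 and 65. Against a floor of 3 counts per library, the mean was at least 31.6-fold higher in BLZ945 tdT+ and at least 79.2-fold higher in tdT- cells. It passed in DESeq2 in both comparisons with vehicle (adjusted p = 1.95e-06 and 1.57e-09). With edgeR, Mrc2 passed in tdT- cells and not in BLZ945 tdT+ cells.

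For the partners that carry the signal of these receptors, no call was made between the fractions. Of 23 adaptor, kinase and transcription factor genes tested, 0 passed between tdT- and BLZ945 tdT+ cells in DESeq2 and 0 in edgeR, with 5 and 2 at an unadjusted p under 0.05. Fcer1g, the gene of FcRγ, had 48849 to 56501 normalised counts in BLZ945 tdT+ and 48745 to 57262 in tdT- libraries (log2 fold change 0.05, SE 0.07, adjusted p = 0.875). The ranges of this shared adaptor of Clec4n and Clec4b1 thus overlapped. Syk had 1812 to 2091 normalised counts in BLZ945 tdT+ and 3048, 2055, 1341 and 819 in tdT- libraries F1, F2, M1 and M2, so that tdT- cells spread more widely (adjusted p = 0.964). Card9 had a log2 change of -0.03 (SE 0.27, adjusted p = 0.972). Against vehicle, 2 of 23 passed as higher in tdT- cells, among them the kinase Lyn (log2 fold change 0.46, SE 0.12, adjusted p = 0.00149), and 0 passed with edgeR, with 4 and 3 at an unadjusted p under 0.05. Without the tdT- library F2, 1 of the 23, Lyn, passed.

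Of 3 phosphatase genes, 0 passed between tdT- and BLZ945 tdT+ in DESeq2 and 0 in edgeR, with 1 and 0 at an unadjusted p under 0.05. Ptpn6 had 7163 to 9029 normalised counts in BLZ945 tdT+ and 8715 to 10356 in tdT- libraries, with a log2 change of 0.18 (SE 0.10, adjusted p = 0.246). Of 9 tested cytokine and chemokine genes known to be induced through lectin receptors, 0 passed between tdT- and BLZ945 tdT+ cells in DESeq2 and 0 in edgeR, with 1 and 0 at an unadjusted p under 0.05. Without the tdT- library F2, 1 of 9, Cxcl2, passed as lower against both tdT+ groups. Its 226 normalised counts in F2 were the only ones in tdT- cells, against 15.4 to 134 in BLZ945 tdT+ and 0 to 43.3 in vehicle libraries, and with F2 it did not pass (adjusted p = 0.987 and 0.873). Against vehicle, Il1b (log2 fold change 1.44, SE 0.67, adjusted p = 0.0222) and Ccl3 (0.99, SE 0.41, adjusted p = 0.0212) were higher in tdT- cells in DESeq2, and 0 passed with edgeR. Il1b had 58.9 to 201 normalised counts in vehicle and 194 to 634 in tdT- libraries, ranges that overlap.

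**Figure D5:**
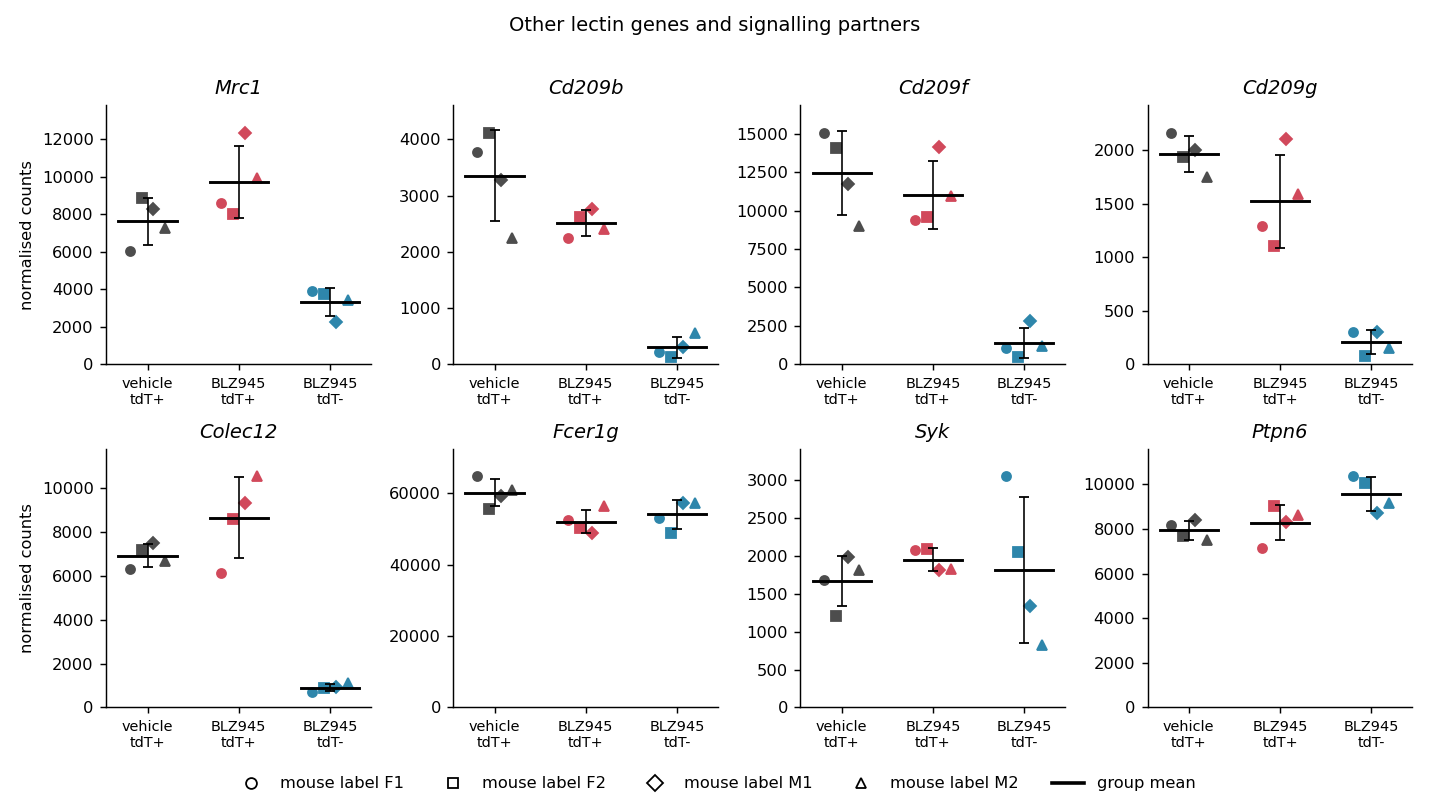
Normalised counts of Mrc1, 3 Cd209 genes, Colec12 and the signalling genes Fcer1g, Syk and Ptpn6 in the 12 libraries, on linear axes that start at 0. Symbols are mouse labels, thick lines group means and bars the SD over 4 libraries. The 5 other lectin genes lie lower in the 4 tdT- libraries than in each of the tdT+ libraries, whereas Fcer1g and Syk overlap between BLZ945 tdT+ and tdT-.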

How the data were processed

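For each of 12 libraries, the authors deposited raw read counts by gene name, together with the merged exon length of each gene. Per the file headers, the authors counted with featureCounts 2.0.6 over exons of a filtered GENCODE M33 annotation (GRCm39), without strand and without reads that map to several places. The labels name STAR 2.7.11a as aligner. Because strand was not used, sense and antisense reads of overlapping genes are counted alike, and close gene copies lose shared reads. SMART-Seq libraries are amplified by PCR, so detection floors cover counting error only. All 12 columns were assigned by library number. One vehicle column carries the label M1 but the number of M2.

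Analysis was done in R 4.3.3. A gene was dropped, as in the study, when 75% or more of libraries had under 10 counts, which left 13724. DESeq2 1.42.0 (two-sided Wald test, all 12 libraries, group as term) gave p-values, and apeglm 1.24.0 shrank fold changes. Normalised counts are counts over size factors, and TPM was computed from counts and deposited exon lengths. Libraries of one mouse were paired by their labels. Same-labelled BLZ945 libraries had deviations from the group means that correlated at -0.00463 to 0.0352 over all genes tested. Over genes with a mean of 1000 or more, the correlation was 0.0949 to 0.265. Same-labelled vehicle and BLZ945 libraries, which are from other animals, correlated at -0.0182 to 0.0484 and at 0.0281 to 0.171. These ranges overlap, so the pairing rests on the labels. No replicate pair was near sampling noise (chi-square per degree of freedom of at least 48.7). The labels give separate mice within a group. Alternatives were edgeR 4.0.16, TMM factors, other filters, the 8 libraries compared, the letter F or M as covariate, a block by mouse label and each library left out. The fit was tested on simulated counts. The members, gene lists, tests and named genes were chosen with earlier results of these data known. Named were the 10 receptors, Fcer1g, Syk, Card9, Ptpn6 and Mrc1, listed genes that were DEGs and averaged 100 or more normalised counts, and genes lying between receptors. Cd93, Lyn and Ccl3, which passed, were named after their values were seen, and some other listed genes are not reported here. The motifs were chosen after seeing the data too.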

Additional observations from a re-analysis of the deposited data

Results flagged for a closer look

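Within groups of 4, 68 sets of values were tested for a sample far from the others, and 7 were flagged, where chance alone flags about 1 in 20. Clec4n in the tdT- library F2 (2366 normalised counts) lay below the other tdT- libraries (5021 to 5040.2). Clec10a in the vehicle library F1 (15937) lay above the other vehicle libraries (10979.6 to 11733). The tdT- library F2 was also highest in summed normalised counts of neutrophil markers (450203 against 11.5 to 93.9), of monocyte markers (51872 against 3078 to 6817) and of red blood cell markers (36901 against 8.44 to 100.1), and in genes detected (15866 against 14304 to 14382). The red blood cell sum was 54.1 to 8778 in vehicle tdT+ and 417 to 15884 in BLZ945 tdT+ libraries. Without the tdT- library F2, 4 of 5 red blood cell markers tested passed as lower in DESeq2 against both tdT+ groups. The BLZ945 tdT+ library F2 was highest in neutrophil markers (72.8 against 0.92 to 4.2). Clec4a2 was lower in tdT- than in tdT+ cells of both mice labelled F and higher in both mice labelled M, with a mean log2 ratio of -0.17 against 0.19, a gap of -0.36, and this difference was not tested.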

How the results depend on the processing

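Of 464 values of single receptor genes under alternatives, 446 kept their side of the threshold, 12 lost the call, 6 gained one and 0 reversed. Clec4n, Clec10a and Clec4a1 kept theirs in all alternatives of both tdT- contrasts, and Clec4b1 in all against BLZ945 tdT+. The block by mouse changed the call of no receptor gene other than Clec4a3. Leaving out 1 library gave 4 to 6 receptor genes in tdT- versus BLZ945 tdT+ (genes passing 677 to 1020), 4 to 5 in tdT- versus vehicle (756 to 1097) and 0 to 1 in BLZ945 tdT+ versus vehicle (104 to 190, DEGs 18 to 35), where the 1 was Clec4e without the vehicle library F1. Genes passing in tdT- versus BLZ945 tdT+ numbered 875, and 377 with edgeR or 361 with edgeR without the tdT- library F2, an alternative chosen after seeing the data. In tdT- versus vehicle they numbered 928, 446 and 429. With unshrunken fold changes DEGs rose from 309 to 487, from 350 to 544 and, in BLZ945 tdT+ versus vehicle, from 23 to 67. In that last contrast 131 genes passed, against 9 with edgeR, 256 without a filter, 325 in the 8 libraries compared and 389 with a replicate block. Its DEGs numbered 7 with edgeR, 46 without a filter, 6 with a stricter filter, 54 in the 8 libraries and 58 with the block, although vehicle mice share only labels with the others. The causes were not tested. Not dividing by exon length moved 17 of 30 ranks. Depth limits statements on Clec4d and Clec4e.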
